A study of Mus musculus with 6 samples.

Results

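The p53 target effector genes are the transcripts that the transcription factor p53 switches on to slow the cell cycle, repair DNA, change metabolism or start cell death. The list held 32 named genes, chosen by name with earlier results of these data known. For each gene the probe set with the highest mean over the 6 arrays was taken, among probe sets that the platform annotation gives exactly 1 gene symbol. This found 30 of the 32 among 19938 genes tested. Gdf15, which encodes a stress-induced secreted factor, had no such probe set and was not analysed here. Ass1, the argininosuccinate synthase gene of arginine synthesis, is carried in the annotation by 2 probe sets that hold several symbols, and it was not analysed either.

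The cells were precursors of the mouse B lineage into which the oncogene BCR-ABL1 had been introduced. It encodes the fusion kinase that drives Philadelphia chromosome-positive acute lymphoblastic leukaemia. Cells of Dusp6 WT mice (3 arrays) were compared with cells of Dusp6 KO mice (3 arrays), and all carried the oncogene on the mixed strain background C57Bl/6-SV129j. Dusp6 encodes a phosphatase that inactivates ERK. The labels give no age and no clone or pool, and they do not state whether the 3 samples per genotype were grown or taken separately. The tests therefore weigh a difference against the spread among these arrays alone, and that spread may be only technical.

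p53 is a short-lived protein that accumulates when the ubiquitin ligase Mdm2 is held off, for instance by the Arf product of Cdkn2a, which responds to strong oncogene signals. It then binds pairs of half-sites in or near its target genes. In precursor B cells this response is known to limit transformation by BCR-ABL1. Its level and activity are set largely at the protein level, so mRNA arrays read the targets and not the activity of p53.

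A gene was called where limma's p-value, adjusted by the Benjamini-Hochberg method over all 19938 genes, was under 0.05. Differences are KO minus WT on the log2 scale, where 1 is a doubling, and their errors are limma's standard errors. Dusp6 itself checked the labels: its log2 signal was 12.36, 12.46 and 12.49 on the WT arrays and 9.04, 9.06 and 9.15 on the KO arrays. Over all genes, 9.66% were called higher in KO and 10.2% lower. The markers of B cell precursors were present, with all 16 tested at or above the median signal, 4 of them higher and 6 lower in KO. Their summed linear signal was 154000 in WT and 146000 to 150000 in KO. Their differences ran from −1.42 (Dntt) to 0.25 (Cd93). Of the mature B cell markers, 5 of 9 were higher and 1 lower (summed linear signal 2660 to 2780 in WT and 4240 to 4510 in KO), and of the T and NK cell markers 4 of 13 were higher (3690 to 3770 and 5510 to 5660). The myeloid and mast cell markers gave 2 of 16 higher (2890 to 2990 and 3780 to 4030), the erythroid and megakaryocyte markers 1 of 7 (1730 to 1820 and 1700 to 1770), and the stromal and fibroblast markers 1 of 11 (20800 to 21400 and 21000 to 21400). Most of the stromal sum came from Vim (mean 14.14 in both genotypes). The next brightest marker of that list, Col1a1, averaged 9.35 in WT and 9.38 in KO. Cd2 (mean 10.62 in WT and 11.64 in KO), Cd5, Cd8b1 and Klrd1 were the T and NK cell markers called. Most of the rise in the summed signal of the T and NK cell markers came from Cd2 alone. The other 9 T and NK cell markers, among them Cd3e, Cd3d, Cd3g, Cd4 and Cd8a, were not called. Lyz2 and Fcgr3 were the myeloid markers called, and the other 14 were not. Below the lower quartile of gene signals lay 7 of the 13 T and NK cell markers and 9 of the 16 myeloid markers. So did 3 of the 9 mature B cell markers, among them Ms4a1, which was called higher. The part of these markers in the differences below was not tested, and in bulk RNA fewer cells of a type and less RNA per cell cannot be told apart.

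Of the 30 p53 target genes tested, 10 were called higher in KO cells and 4 lower. That is 33.3% and 13.3%, against 9.66% and 10.2% of all genes (19.8% in either direction). The list was chosen with earlier results of these data known, so these shares describe it and do not test it. Most of the rise sat in a few genes: Eda2r and Ephx1 passed 2-fold, as did 1.29% of all genes, and Btg2, Zmat3 and Phlda3 rose 1.51-fold to 1.95-fold, while the median over the 30 genes was 0.015, against 0.0018 over all genes. The 3 KO values lay wholly above the 3 WT values in 14 genes and wholly below in 7, where all genes gave 17.3% and 18.4%. Leaving out KO replicate 3 left 6 called higher and 2 lower, and leaving out WT replicate 2 left 2 lower.

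**Figure D1:**
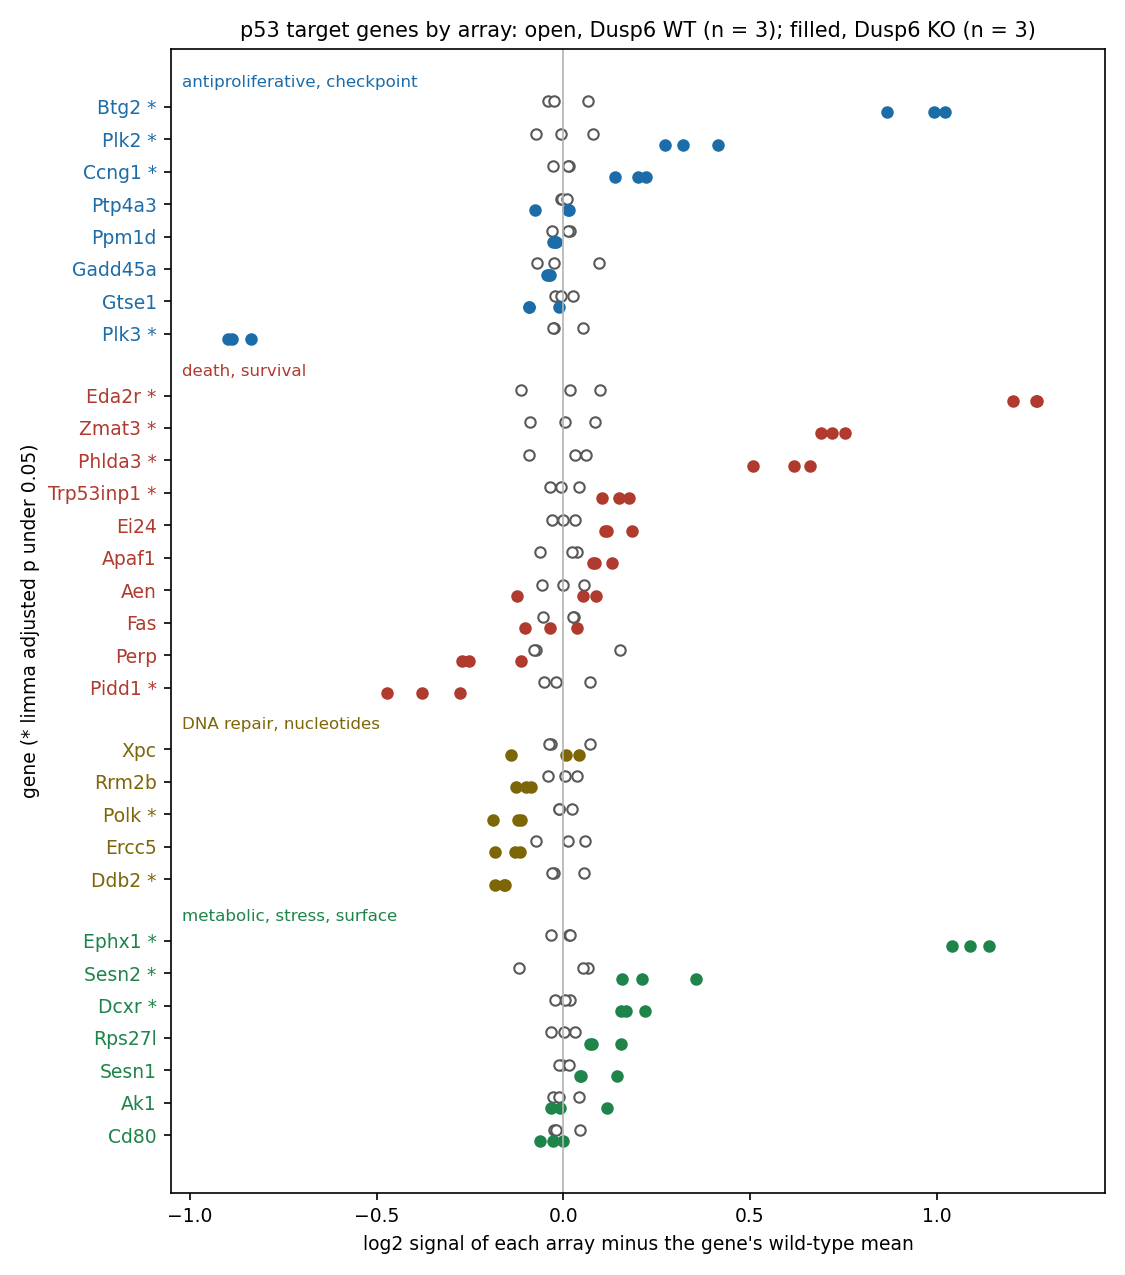
Log2 signal of each array minus the gene's WT mean (x axis) for the 30 p53 target genes tested (y axis), grouped by role; open points are the 3 WT arrays, filled points the 3 KO arrays and an asterisk marks an adjusted p under 0.05. The KO points of Eda2r, Ephx1, Btg2, Zmat3 and Phlda3 stand far to the right, those of Plk3 far to the left, and the 5 DNA repair genes all average below 0.

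The promoter windows show which of the genes with a promoter entry hold a p53 half-site close to their start. The p53 half-site, a motif of 10 bases, was searched on both strands in RefSeq windows (GRCm38.p6) from 250 bases before to 50 after each annotated start. Entries were found for 23 of the 30 genes, with 31 starts. A half-site with no mismatch stood in 10 of the 31 windows (32.3%), against 8.36% of all 32851 windows of that length. These windows belong to 9 genes, and Aen counts with 2 overlapping windows around 1 site. Of the 9 genes, 7 were not called (Aen, Ei24, Gadd45a, Gtse1, Ppm1d, Rps27l and Sesn1), Ccng1 was called higher and Polk lower. None of Eda2r, Ephx1, Btg2, Phlda3, Plk2, Sesn2 and Dcxr, the other called-higher genes with an entry, held one in its window. This is a description of the letters in these windows only.

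The upstream windows of the 4 called-higher genes with the largest differences that have an entry, of Ccng1, which holds a pair of adjoining half-sites, and of Plk3, the gene that fell most, are printed 5′ to 3′ on the strand of the gene. Each covers the 250 bases before the start, and capitals mark half-sites with at most 1 mismatch outside the central C and G, a looser form present in 50.9% of all windows.
Eda2r, chrX:97377210-97377459, minus strand: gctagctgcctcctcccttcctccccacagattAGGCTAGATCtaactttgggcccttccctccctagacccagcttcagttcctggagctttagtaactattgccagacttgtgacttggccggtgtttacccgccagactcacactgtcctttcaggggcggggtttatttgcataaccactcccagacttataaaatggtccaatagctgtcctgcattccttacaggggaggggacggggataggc
Ephx1, chr1:181017570-181017819, minus strand: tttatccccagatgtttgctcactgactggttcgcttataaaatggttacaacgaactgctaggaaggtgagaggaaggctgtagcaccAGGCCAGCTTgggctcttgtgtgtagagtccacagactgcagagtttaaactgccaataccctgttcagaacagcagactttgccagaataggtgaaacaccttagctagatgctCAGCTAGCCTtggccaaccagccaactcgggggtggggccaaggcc
Btg2, chr1:134079156-134079405, minus strand: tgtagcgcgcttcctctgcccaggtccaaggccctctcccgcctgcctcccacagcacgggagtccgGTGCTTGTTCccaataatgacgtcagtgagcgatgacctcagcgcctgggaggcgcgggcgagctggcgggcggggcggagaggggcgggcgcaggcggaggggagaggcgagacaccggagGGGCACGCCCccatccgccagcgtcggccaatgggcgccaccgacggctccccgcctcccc
Phlda3, chr1:135765835-135766084, plus strand: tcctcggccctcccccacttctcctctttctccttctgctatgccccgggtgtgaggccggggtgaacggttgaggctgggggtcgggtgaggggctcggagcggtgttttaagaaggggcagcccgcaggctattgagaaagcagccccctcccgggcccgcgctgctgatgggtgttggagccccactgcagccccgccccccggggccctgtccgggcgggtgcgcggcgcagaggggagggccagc
Ccng1, chr11:40755287-40755536, minus strand: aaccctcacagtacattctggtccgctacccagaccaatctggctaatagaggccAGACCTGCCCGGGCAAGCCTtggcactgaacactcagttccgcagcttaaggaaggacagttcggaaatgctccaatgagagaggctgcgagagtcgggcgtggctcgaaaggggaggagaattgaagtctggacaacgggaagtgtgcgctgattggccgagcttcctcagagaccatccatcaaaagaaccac
Plk3, chr4:117133964-117134213, minus strand: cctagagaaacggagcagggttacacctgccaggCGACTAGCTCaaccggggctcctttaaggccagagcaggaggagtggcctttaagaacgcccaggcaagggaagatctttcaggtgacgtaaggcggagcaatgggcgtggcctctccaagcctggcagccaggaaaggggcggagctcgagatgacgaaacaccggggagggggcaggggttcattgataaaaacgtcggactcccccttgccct

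In the Ccng1 window the half-sites adjoin with no spacer, the nearer one without a mismatch, 185 bases before the start. Pairs at most 13 bases apart with at most 1 mismatch in all were found in 3 windows, those of Ccng1, Gtse1 and Rps27l, and in 0.627% of all windows. The following short stretches show a half-site without mismatch (capitals) in 4 genes that were not called and in Polk, called lower at a difference of −0.14, about the size of that of Ei24 (0.14).
Ei24, chr9:36797325-36797354, minus strand: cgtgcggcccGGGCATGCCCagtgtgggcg
Gadd45a, chr6:67037428-67037457, minus strand: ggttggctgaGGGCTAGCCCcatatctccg
Ppm1d, chr11:85311112-85311141, plus strand: gggcgggggcGAGCTTGCTCttcttgactc
Rps27l, chr9:66946296-66946325, plus strand: gggcttgttgAGACTTGTCCgggcgacacg
Polk, chr13:96519399-96519428, minus strand: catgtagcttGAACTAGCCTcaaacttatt
Letters of the TATA box (TATAAA on either strand) were in 4 of the 31 windows (12.9%, against 13.6% of all windows), those of Ak1, Cd80, Eda2r and Ephx1. Letters of the GC box (GGGCGG on either strand) were in 18 (58.1%, against 35.7% of all windows).

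**Figure D2:**
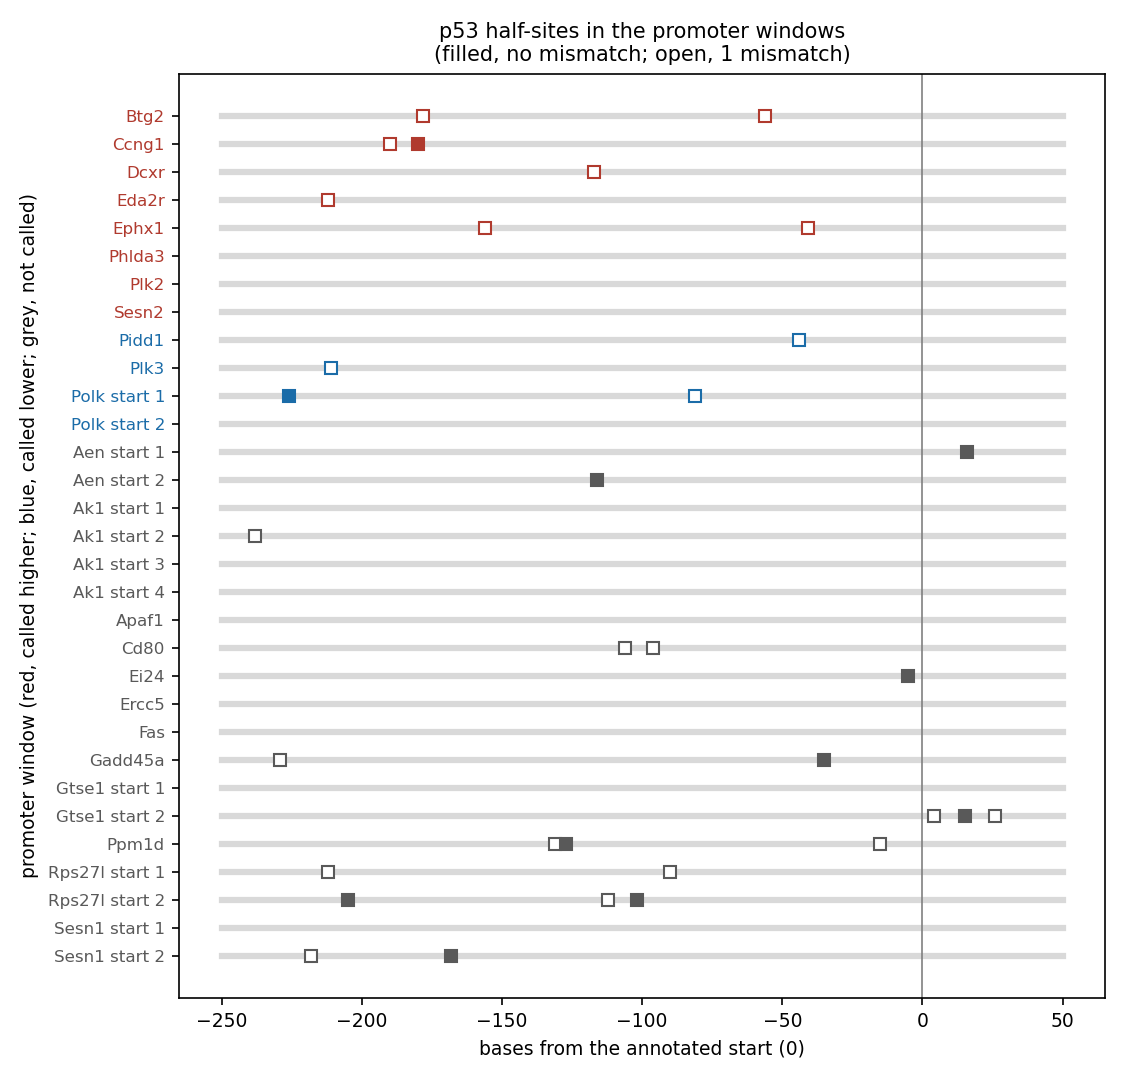
Position of p53 half-sites relative to the annotated start (x axis, in bases) in the 31 promoter windows of 23 p53 target genes (y axis); filled squares have no mismatch and open squares 1 mismatch. Filled squares stand in 10 windows, 7 genes of which were not called, and the windows of Phlda3, Plk2, Sesn2, Apaf1, Ercc5 and Fas hold no square.

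Among the antiproliferative and checkpoint genes, 3 of 8 rose, 1 fell and 4 did not pass. That is 37.5% higher and 12.5% lower in a small group, beside 9.66% and 10.2% of all genes. Btg2, which encodes an antiproliferative cofactor of mRNA deadenylation, gave 10.46, 10.35 and 10.37 on the WT arrays and 11.41, 11.26 and 11.38 on the KO arrays. The groups were far apart, with every KO array above every WT array. The difference was 0.96 ± 0.054 (1.95-fold, limma adjusted p = 1.7e-06). Ccng1, the cyclin G gene and one of the classical p53 targets, had signals of 13.60, 13.56 and 13.60 in WT and 13.73, 13.79 and 13.81 in KO. These do not overlap, but the step was small (0.19 ± 0.043, 1.14-fold, limma adjusted p = 0.013), and without KO replicate 3 the adjusted p was 0.055.

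The polo-like kinase paralogs Plk2 and Plk3, both stress-responsive kinases, went opposite ways. Plk2 gave 6.996, 7.06 and 7.15 in WT and 7.39, 7.48 and 7.34 in KO, all KO values above all WT values. It rose by 0.34 ± 0.055 (limma adjusted p = 0.0021), at a signal below the lower quartile of genes on these arrays, which was not tested against background. Plk3 gave 10.17, 10.10 and 10.09 in WT and 9.22, 9.29 and 9.24 in KO, a gap many times the spread within either group. It fell by 0.87 ± 0.044 on the log2 scale (1.83-fold lower, limma adjusted p = 7.8e-07), and 1.66% of all genes had a larger absolute difference.

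The remaining 4 genes of this group did not pass, and their intervals bound how far they could have moved. Ppm1d, which encodes the Wip1 phosphatase that turns the p53 response off again, differed by −0.023 (95% interval −0.11 to 0.066). Gadd45a, a growth arrest and DNA damage gene, differed by −0.039 (−0.15 to 0.075), and its 3 KO values of 9.50, 9.50 and 9.51 lay within the WT range of 9.47 to 9.64. Gtse1, a mitotic gene whose product binds p53 in G2, differed by −0.065 (−0.16 to 0.033). Ptp4a3, a phosphatase gene, differed by −0.016 (−0.11 to 0.081).

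Among the genes of cell death and survival, 4 of 10 rose, 1 fell and 5 did not pass. All genes gave 9.66% higher and 10.2% lower. Eda2r, an X-linked death receptor of the TNF receptor superfamily, had the largest difference of the 30 genes. It gave 6.88, 7.09 and 7.01 in WT and 8.20, 8.26 and 8.26 in KO. The KO arrays were tightly grouped and all far above WT, by 1.25 ± 0.058 (2.37-fold, limma adjusted p = 4.3e-07). The WT signal lay below the lower quartile of genes (7.45) and was not tested against background, so the size of this rise is less certain than its direction. Counted from the largest increase, it ranked 101 among all genes.

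Zmat3, an RNA-binding zinc finger gene that acts on splicing, gave 10.36, 10.44 and 10.27 in WT and 11.08, 11.05 and 11.11 in KO. All KO values were higher, and the rise was 0.72 ± 0.052 (1.65-fold, limma adjusted p = 9.0e-06). Phlda3, whose product competes with the kinase AKT for membrane lipids, gave 10.04, 9.89 and 10.01 in WT and 10.64, 10.49 and 10.60 in KO. It rose by 0.60 ± 0.057 (1.51-fold, limma adjusted p = 6.7e-05), again without overlap. Trp53inp1, a stress-induced gene of autophagy and death, gave 12.53, 12.60 and 12.55 in WT and 12.71, 12.66 and 12.74 in KO. Its rise of 0.14 ± 0.043 was just inside the threshold (limma adjusted p = 0.048), and the call was lost without any 1 of the 6 arrays (adjusted p from 0.052 to 0.16).

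Pidd1, the scaffold of the caspase-2 platform, fell. Its signals were 10.57, 10.66 and 10.54 in WT and 10.31, 10.12 and 10.21 in KO, with no overlap, a difference of −0.38 ± 0.059 (1.30-fold lower, limma adjusted p = 0.0016). Perp, a p53 target of cell adhesion and death, lay lower in every KO array (7.66 to 7.90 in WT, 7.47 to 7.63 in KO) but did not pass (−0.21 ± 0.071, limma adjusted p = 0.069). Ei24, an endoplasmic reticulum gene, lay higher in every KO array (12.27 to 12.33 in WT, 12.41 to 12.48 in KO) and missed narrowly (0.14 ± 0.043, limma adjusted p = 0.053).

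The other genes of the death machinery did not pass either. Fas, the classical death receptor, differed by −0.033 (95% interval −0.15 to 0.079), at a dim signal of 6.91 to 7.05 over all 6 arrays. Its values overlapped fully, unlike those of the death receptor Eda2r. Aen, an apoptosis-enhancing nuclease gene, differed by 0.0058 (−0.13 to 0.14), with KO values of 10.45, 10.24 and 10.42 on both sides of WT. Apaf1, the core of the apoptosome, was higher in each KO array (11.44 to 11.54 in WT, 11.59 to 11.64 in KO) without passing (0.098 ± 0.045, limma adjusted p = 0.17).

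All 5 genes of DNA repair and nucleotide supply had differences below 0, all under 0.17 in size, and 2 of them fell. Over all 19938 genes, 9812 had differences below 0 and 10.2% were called lower. Ddb2, the damage sensor of nucleotide excision repair, gave 9.32, 9.40 and 9.32 in WT and 9.16, 9.19 and 9.19 in KO. It fell by 0.17 ± 0.043 (limma adjusted p = 0.023), and the call was lost without WT replicate 1 or 2 or KO replicate 1 or 3 (adjusted p from 0.051 to 0.085). Polk, a translesion DNA polymerase, gave 10.17, 10.14 and 10.14 in WT and 9.96, 10.02 and 10.03 in KO. It fell by 0.14 ± 0.042 (limma adjusted p = 0.042), and that call was lost without any 1 of the 6 arrays (adjusted p from 0.068 to 0.14).

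The groups did not overlap for Ercc5, an excision repair nuclease (10.04 to 10.17 in WT, 9.93 to 9.99 in KO), or for Rrm2b, the p53-inducible subunit of ribonucleotide reductase (9.84 to 9.92 in WT, 9.75 to 9.80 in KO). They did not pass, with differences of −0.14 ± 0.048 (limma adjusted p = 0.067) and −0.10 ± 0.042 (limma adjusted p = 0.12). Xpc, which recognises bulky DNA lesions, overlapped between the groups (9.93 ± 0.062 in WT and 9.90 ± 0.097 in KO, SD, n = 3 each), at a difference of −0.030.

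Among the metabolic, stress, secreted and surface genes, 3 of 7 rose, 0 fell in the limma test (0 also at an unadjusted p under 0.05 and without variance moderation) and 4 did not pass. All genes gave 9.66% higher and 10.2% lower. Ephx1, the microsomal epoxide hydrolase, gave 9.82, 9.77 and 9.83 in WT and 10.85, 10.90 and 10.95 in KO. Each KO array was about a doubling above each WT array, a rise of 1.09 ± 0.044 (2.13-fold, limma adjusted p = 1.9e-07). Sesn2, a leucine-sensing inhibitor of the growth kinase complex mTORC1 that also responds to amino acid stress, gave 9.50, 9.69 and 9.68 in WT and 9.98, 9.78 and 9.83 in KO. Its groups came close, and the rise of 0.24 ± 0.067 (limma adjusted p = 0.033) was lost without WT replicate 1, KO replicate 1 or KO replicate 3 (adjusted p from 0.066 to 0.11). Dcxr, a dicarbonyl and xylulose reductase, gave 9.48, 9.47 and 9.44 in WT and 9.63, 9.62 and 9.68 in KO. It rose by 0.18 ± 0.041 (limma adjusted p = 0.013), which was lost without WT replicate 3 or KO replicate 3 (adjusted p = 0.053 and 0.055).

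Sesn1, the paralog of Sesn2, lay just above WT in every KO array (12.29 to 12.31 in WT, 12.35 to 12.44 in KO) and did not pass (0.079 ± 0.044, limma adjusted p = 0.28). Rps27l, a ribosomal protein paralog, did the same (13.09 to 13.16 and 13.20 to 13.28; 0.10 ± 0.044, limma adjusted p = 0.16). Ak1, the adenylate kinase gene, differed by 0.025 (95% interval −0.091 to 0.14). Cd80, a costimulatory ligand of T cells, differed by −0.030 (−0.13 to 0.066). Its other, dimmer probe set lay higher in KO (7.10 to 7.19 in WT, 7.25 to 7.37 in KO), with a difference of 0.17 ± 0.048 and a limma adjusted p of 0.034 over all named probe sets, so the 2 probe sets disagree.

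**Figure D3:**
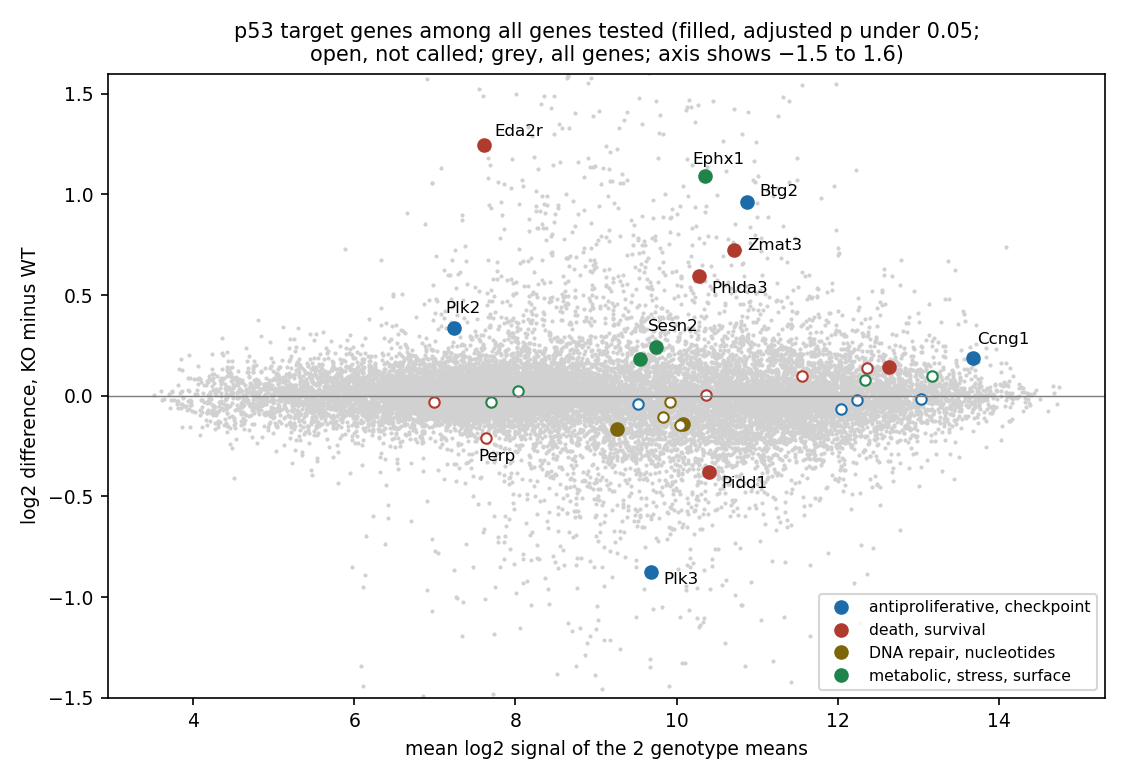
Log2 difference KO minus WT (y axis) against the mean log2 signal of the genotypes (x axis) for all 19938 genes (grey) and the 30 p53 target genes (coloured by role; filled where the adjusted p was under 0.05). Most of the 30 lie in the band of small differences around 0, and Eda2r (1.25), Ephx1 (1.09), Btg2 (0.96) and Plk3 (−0.87) lie farthest outside it.

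Of the 16 genes that did not pass, 14 had a 95% interval inside −0.25 to 0.25, and Perp and Ercc5 did not. In 7 of the 16 (43.8%) the groups did not overlap, beside 19.9% of all genes not called and 35.7% of all genes tested. The smallest difference called among the 30 genes was 0.14 in size, the standard errors ran from 0.040 to 0.071, and the median SD between arrays of 1 genotype was 0.046 in WT and 0.044 in KO.

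Of 26 genes listed as regulators of p53, 20 did not pass, 2 were called higher and 4 lower (7.69% and 15.4%, beside the 9.66% and 10.2% of all genes), with a median of −0.034. The list also holds the p53 relatives Trp63 and Trp73, and neither was called. Cdkn2a, which encodes p16 and Arf, rose by 1.42 ± 0.062, and Rchy1, a p53 ubiquitin ligase gene, rose by 0.26. Cdkn2a was read by 1 probe set, and which of its products rose was not tested. Ppp1r13b, whose product steers p53 towards death genes, fell by 0.33 and the checkpoint kinase gene Chek1 fell by 0.28. Mdm2, which is both the main p53 ubiquitin ligase and a p53 target, differed by 0.083 ± 0.045 (limma adjusted p = 0.26), and Mdm4, its relative, by −0.054 (limma adjusted p = 0.58). Trp53 and the p53 target Cdkn1a were not analysed here.

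Of 35 other p53 target genes tested, Mdm2 again among them, 8 were called higher and 5 lower (22.9% and 14.3%), with a median of −0.051. Differences below 0 were found in 21 of the 35. With limma's unadjusted p under 0.05, 8 were higher and 11 lower. Zfp365 (0.83), linked to genome stability, and the cytokine gene Lif (0.53) rose, while Rprm, a G2 arrest gene, fell by 0.59 and the stress gene Ndrg1 fell by 0.57. Members of this list moved in both directions too. The p53-DREAM route is the repression of cell cycle genes downstream of p53 and p21. Of 38 genes listed for that route and tested, 0 were called higher and 17 lower (44.7%), with a median of −0.13 and 32 below 0. Over all 19938 genes, 9.66% were called higher and 10.2% lower, and 9812 were below 0. Whether p53 had a part in the fall of the listed genes was not tested. Ttk, E2f1, Kif2c and Brca1 fell most, with differences of −0.41, −0.36, −0.34 and −0.31. At an unadjusted p under 0.05 1 gene was higher, the CDK subunit gene Cks1b (0.13), and 23 were lower, and 1 was called higher by limma without variance moderation. Without WT replicate 2 the genes called lower numbered 11.

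**Figure D4:**
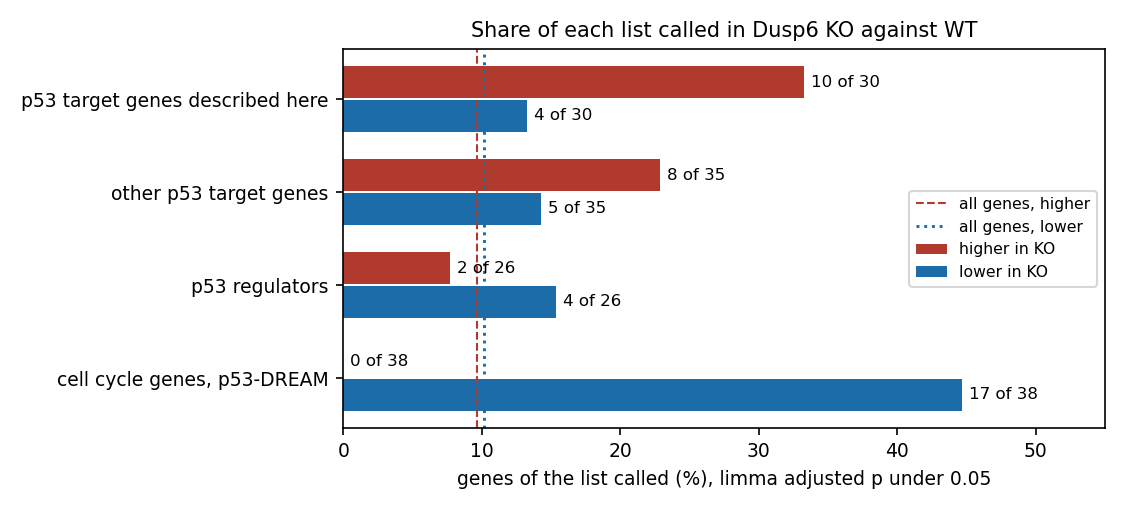
Percent of each list called higher (red bars) or lower (blue bars) in KO at a limma adjusted p under 0.05 (x axis), with counts at the bars; the dashed and dotted lines give the shares of all genes, 9.66% and 10.2%. At this threshold the p53 target genes described here and the other p53 targets have longer red than blue bars. For the other p53 targets this did not hold in every setting. The cell cycle genes of the p53-DREAM route have a blue bar only (17 of 38).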

How the data were processed

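Total RNA of the 6 samples (3 Dusp6 WT, 3 Dusp6 KO, grouped by their labels) was measured on Affymetrix arrays. The deposited values are log2 signals, 1 for each probe set on each array, which the authors made with RMA and Partek 6.5 (submitters' processing notes). RMA's version, background setting and summary level were not given in the sources used here. That the scale is log2 was inferred from the range (3.23 to 14.8, array medians 8.38 to 8.42). RMA equalises the arrays' distributions, so a change shared by most genes would not be seen. Precision is limited by the number of arrays, as there are no reads to count.

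Of 35556 probe sets, 21789 had 1 symbol, 1621 several and 12146 none. The probe set with the highest mean stood for each of 19938 genes. All genes were tested in R 4.3.3 with limma 3.58.1 (lmFit, eBayes, genotype as the only term), with Benjamini-Hochberg adjustment. The fit was also run on simulated arrays with independent noise and far fewer changed genes than were called here. Those arrays were independent by construction, so the run cannot show whether the real arrays were. Promoter windows and motif counts came from RefSeq sequences (GRCm38.p6) with Python 3.11.15. RefSeq promoter entries were matched by symbol.

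The p53 target genes and the other lists were chosen with earlier results of these data known. All 30 genes tested were named, with Dusp6, up to 4 called genes of each p53-related list by size of difference, and Mdm2, Mdm4 and Cdkn2a; Cks1b and the genes between Btg2 and Phlda3 were chosen after their values were seen. Alternatives were another normalization, filters on dim genes, the mean of probe sets, other variance models, a block for the replicate number and leaving out each array.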

Additional observations from a re-analysis of the deposited data

How the results depend on the processing

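Of the 14 p53 target genes called, 8 kept their call in every setting that tested them (Eda2r, Ephx1, Btg2, Zmat3, Phlda3, Plk2, Plk3 and Pidd1) and 6 lost it in at least 1; of the 16 not called, 5 gained a call in at least 1 (Perp, Ercc5, Ei24, Rrm2b and Rps27l). Dim-gene filters tested fewer genes, so that Plk2 was tested in 12 and Eda2r in 13 of the 14 settings. Over all settings the members called numbered 6 to 12 higher and 2 to 6 lower. With 1 array left out, the ranges were 6 to 9 higher and 2 to 3 lower with a median of −0.021 to 0.062; 2 to 2 higher and 2 to 3 lower among regulators of p53; 8 to 9 and 3 to 5 among the other p53 targets; 0 to 0 and 11 to 14 among the cell cycle genes; and 1491 to 1730 and 1512 to 1959 over all genes.

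The members' median was 0.042 without the dimmer genes (below the median signal) and 0.048 with the mean of all probe sets. The other p53 targets called lower numbered 9 at or above the median signal (7 higher), 8 with trend and robust options (8 higher) and 3 with the replicate block (8 higher). The cell cycle genes called higher numbered 1 with repeated quantile normalization, with either dim-gene filter, with trend and robust options and without variance moderation. The last setting also gave 1 regulator of p53 higher and 2 lower, and 1327 genes lower in all. The promoters with a half-site numbered 19 with 1 mismatch allowed and 3 for pairs, a setting chosen after seeing the data. The cause of these shifts was not tested.

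Genes not called turned sign in some settings. Aen was −0.0059 with arrays centred on the median, and Cd80 was 0.072 with the mean of its probe sets. With 1 array left out, Aen ran from −0.035 to 0.070, Xpc from −0.066 to 0.026, Gadd45a from −0.074 to 0.0093, Ak1 from −0.021 to 0.054, Ptp4a3 from −0.032 to 0.014 and Fas from −0.069 to 0.00057.

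The labels do not say whether the replicate numbers pair the samples. The deviations of same-numbered arrays correlated at 0.0098, −0.12 and 0.053, and those of other-numbered arrays at −0.15 to 0.13. Not every array correlated best with its own number. With 3 arrays per genotype, deviations from the group mean are tied to each other, so these values cannot decide whether samples were paired. With the replicate block the calls of Trp53inp1 (adjusted p = 0.10), Sesn2 (0.073) and Polk (0.095) were lost, as were calls among the other p53 targets given above.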

Other observations

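Of the 10 p53 target genes called higher, 3 lie on chromosome 1 (Btg2, Phlda3 and Ephx1), a chromosome with 5.65% of the genes tested, of which 10.6% were called higher. The remaining p53 target gene there, Ercc5, was not called. Btg2 and Phlda3 are near each other, and 29 tested genes lie between them in the reference gene order. Of those 29 genes, 1 was called higher (3.45%) and 3 lower (10.3%), with a median difference of −0.0092, beside 9.66% and 10.2% of all genes. The gene called higher was Kdm5b, a histone H3 lysine demethylase (0.58 ± 0.074, limma adjusted p = 0.00041). Rnpep, an aminopeptidase gene, fell by 0.32, Klhl12, a ubiquitin ligase adaptor, fell by 0.18, and Ube2t, the ubiquitin-conjugating enzyme of the Fanconi anaemia pathway, fell by 0.17. This interval was chosen after its values were seen.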
